A study of Mus musculus with 29 samples.

Results

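Respiratory complex I (NADH:ubiquinone oxidoreductase) is built from subunits encoded in the nucleus, most of them named Nduf, and from 7 ND subunits encoded in the mitochondrial genome. The genes described here are the rows of the expression table whose symbol starts with Ndufa, Ndufab, Ndufb, Ndufc, Ndufs or Ndufv, or with Ndufaf, each followed by a number. This rule picked 45 of 24770 rows: 36 subunit genes, the 7 assembly factors Ndufaf1 to Ndufaf7, and 2 rows that are not complex I subunits. These are Ndufa4, which is now assigned to complex IV, and Ndufa4l2, its hypoxia-induced relative. The nuclear subunit gene Ndufb1 matched no row, so the 36 are not the complete nuclear set. All 45 passed the filter on low counts in both tissues, and their genes lie on 16 chromosomes. Among those that recur below (GRCm38, GENCODE exon models), Ndufs1 spans chr1:63143596-63176833, Ndufs8 chr19:3908863-3912774, Ndufab1 chr7:122085403-122101886 and Ndufaf1 chr2:119655446-119662827, all on the minus strand.

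RNA was sequenced from brown adipose tissue (BAT) and from gastrocnemius muscle (SkM) of wild-type male C57BL/6J mice that were 8 weeks old when the interventions began and were treated for 8 weeks. Control mice were sedentary and ate freely. CR mice were sedentary under calorie restriction, with food lowered stepwise below free intake, EX mice ate freely and ran on a treadmill, and CREX mice had both interventions. BAT was represented by 3 control, 4 CR, 4 EX and 4 CREX libraries and SkM by 4 control, 3 CR, 4 EX and 3 CREX libraries. All mice were fasted for some hours before tissue collection, which followed the last run by a day, so that the controls carry the fast too. Each library is whole tissue, so that fewer cells of a type and less RNA per cell cannot be told apart.

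Complex I takes electrons from NADH through a flavin and a chain of iron-sulfur clusters to ubiquinone and pumps protons across the inner mitochondrial membrane. Its N module oxidizes NADH, its Q module reduces ubiquinone, and its proximal and distal membrane arms carry the proton channels formed by the ND proteins. In muscle the proton gradient is used mainly to make ATP, whereas in brown adipocytes it can be dissipated as heat through Ucp1. Assembly factors such as the Ndufaf proteins help the modules to form and are not part of the finished enzyme.

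The subunit genes were grouped into 10 of the N module, 6 of the Q module, 9 of the proximal and 11 of the distal membrane arm. RefSeq promoter windows (GRCm38.p6, 250 bases before to 50 after a start) were matched for 39 of the 45 members. The exon-free upstream stretches of 4 subunit genes that were lower in trained restricted muscle are shown first, Ndufc1, Ndufb2, Ndufab1 and Ndufs8, followed by Ndufa6. The estimate of Ndufa6 in that comparison was the nearest to 0 among subunit genes with exactly 1 window, whole counts and a long enough exon-free stretch. The printed stretches lie at chr3:51408989-51409205 (minus strand), chr6:39592315-39592564 (plus strand), chr7:122101887-122102098, chr19:3912775-3913024 and chr15:82354323-82354541 (all 3 on the minus strand). Each is printed 5′ to 3′ on the strand of its gene and ends 34, 1, 39, 1 and 32 bases before the annotated start, in that order. Capitals mark matches to a searched motif.
Ndufc1: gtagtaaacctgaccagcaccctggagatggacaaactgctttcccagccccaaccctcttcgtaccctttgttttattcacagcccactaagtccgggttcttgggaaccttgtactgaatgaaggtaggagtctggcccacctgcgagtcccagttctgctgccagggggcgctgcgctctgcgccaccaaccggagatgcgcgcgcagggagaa
Ndufb2: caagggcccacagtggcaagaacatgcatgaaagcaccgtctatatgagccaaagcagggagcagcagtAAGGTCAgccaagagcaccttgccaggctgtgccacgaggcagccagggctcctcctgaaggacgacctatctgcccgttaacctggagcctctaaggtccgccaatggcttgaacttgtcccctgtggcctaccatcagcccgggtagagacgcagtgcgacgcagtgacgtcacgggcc
Ndufab1: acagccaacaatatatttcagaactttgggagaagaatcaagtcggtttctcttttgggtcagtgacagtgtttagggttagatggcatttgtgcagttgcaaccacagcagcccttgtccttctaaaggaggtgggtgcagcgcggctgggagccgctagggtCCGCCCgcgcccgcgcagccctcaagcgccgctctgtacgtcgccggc
Ndufs8: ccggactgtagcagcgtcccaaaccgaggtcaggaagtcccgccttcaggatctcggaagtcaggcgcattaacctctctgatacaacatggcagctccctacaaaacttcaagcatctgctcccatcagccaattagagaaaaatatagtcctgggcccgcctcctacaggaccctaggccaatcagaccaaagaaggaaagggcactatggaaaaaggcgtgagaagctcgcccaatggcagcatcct
Ndufa6: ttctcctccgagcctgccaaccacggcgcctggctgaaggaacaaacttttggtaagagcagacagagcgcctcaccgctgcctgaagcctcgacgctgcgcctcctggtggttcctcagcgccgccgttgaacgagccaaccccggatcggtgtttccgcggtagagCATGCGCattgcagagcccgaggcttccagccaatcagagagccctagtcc

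The motifs searched on both strands were GCGCATG for NRF1, CCGGAAG for ETS factors, AAGGTCA for ERR receptors, AAGATGG for YY1 and GGGCGG for SP1. Among the printed stretches, Ndufb2 holds the ERR motif, Ndufab1 the SP1 motif and Ndufa6 the NRF1 motif, the last 2 on the other strand, and Ndufc1 and Ndufs8 hold none of the 5. Over the 34 windows of 32 subunit genes, the NRF1 motif was in 14.7% against 3.91% of all 32851 windows, the YY1 motif in 20.6% against 6.34%, the ERR motif in 8.82% against 4.72%, the ETS motif in 11.8% against 8.86% and the SP1 motif in 47.1% against 35.7%. None of the 5 was found in 23.5% of the subunit windows and in 52.4% of all windows. The ERR motif was in 1 of 15 windows of subunit genes that were lower in SkM of CREX mice and in 2 of 19 windows of the other subunit genes, and the NRF1 motif in 3 of 15 and 2 of 19. Matches of different motifs may overlap, and all are counts of letters, not of bound sites.

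Between 21047242 and 24919377 counts were assigned per BAT library, and between 23050918 and 23425284 per SkM library. Subunit genes took 0.848 to 1.07% of the counts in BAT and 0.441 to 0.719% in SkM, and the 7 ND genes 8.74 to 13.8% and 5.88 to 12.6%. The least covered member had 76 counts in a library and the least covered subunit gene 624. Brown adipocyte markers had a mean log2(CPM + 1) of 7.52 to 8.82 in BAT and at most 2.42 in SkM, and fast muscle markers of 13.1 to 13.8 in SkM, where CPM is the count relative to the library size after TMM scaling within the tissue. BAT libraries differed in fast muscle markers, from 0.43 to 8.95. Reads of Ndufa13, Ndufb4 and Ndufs5 were partly divided among similar sequences by the counting, so their values are uncertain.

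In untreated mice the subunit genes were abundant in both tissues, with a median over genes of 209 CPM in BAT and 153 CPM in SkM, whereas the assembly factors had medians of 19.1 and 14.7 CPM. Per kilobase of exon, the most abundant subunit gene in both tissues was Ndufb9, a distal arm subunit, with 688 ± 31.1 (SD, n = 3) CPM per kilobase in BAT and 502 ± 111 (n = 4) in SkM. The lowest was Ndufb2 with 12.3 ± 2.07 and 15.0 ± 3.77 CPM per kilobase, for which the annotated exons sum to 4375 bases and lower the value. Ndufs7, which holds the last iron-sulfur cluster before ubiquinone, had 332 ± 50.5 CPM per kilobase in SkM.

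The comparison of control BAT with control SkM asked how the complex I genes differ between the tissues, with both tissues on 1 scale. Of the 36 subunit genes 14 were higher and 5 lower in BAT, where 37.2% of all 13797 genes tested were higher and 37.7% lower (edgeR, adjusted p under 0.05). The median log2 difference was 0.18 over the subunit genes and -0.0007 over all genes. Ndufa1, a small proximal arm subunit, had 103, 114 and 119 CPM in BAT and 67.2, 45.6, 43.9 and 34.9 CPM in SkM. The groups do not overlap, and the log2 difference was 1.22 (SE 0.19, edgeR adjusted p = 0.000219). Ndufb3 and Ndufb6 of the distal arm were higher by 1.22 and 1.21. Ndufv1, the core subunit that binds NADH and the flavin, was higher by 0.89 (441 ± 8.80 against 238 ± 23.3 CPM), and Ndufs1, the largest iron-sulfur subunit, by 0.52. In the other direction stood Ndufs7 with 223, 203 and 220 CPM in BAT and 397, 349, 367 and 275 CPM in SkM, a log2 difference of -0.69 (SE 0.13, edgeR adjusted p = 0.000448). Ndufa11, a membrane subunit, was lower in BAT by -0.82 and Ndufb2 by -0.56.

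Of the 7 assembly factors 3 were higher and 1 lower in BAT, where 37.2% of all 13797 genes tested were higher and 37.7% lower. Ndufaf7, a mitochondrial methyltransferase, had 22.6, 22.4 and 23.9 CPM in BAT and 12.3, 11.2, 11.0 and 11.7 in SkM (log2 difference 0.99, SE 0.09, edgeR adjusted p = 6.94e-07). Ndufaf6 had 6.99, 6.37 and 5.84 CPM in BAT and 18.7, 15.7, 14.6 and 13.6 in SkM (-1.29, SE 0.13, adjusted p = 2.27e-06). Ndufaf2, which acts in late assembly, and Ndufaf3, a Q module assembly factor, were higher in BAT by 0.98 and 0.62, and the other 3 were not called. Ndufa4 was higher in BAT by 0.65 and Ndufa4l2 lower by -0.79. All 7 brown adipocyte markers were higher and all 10 fast muscle markers lower in BAT, and their part in these differences was not tested.

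**Figure D1:**
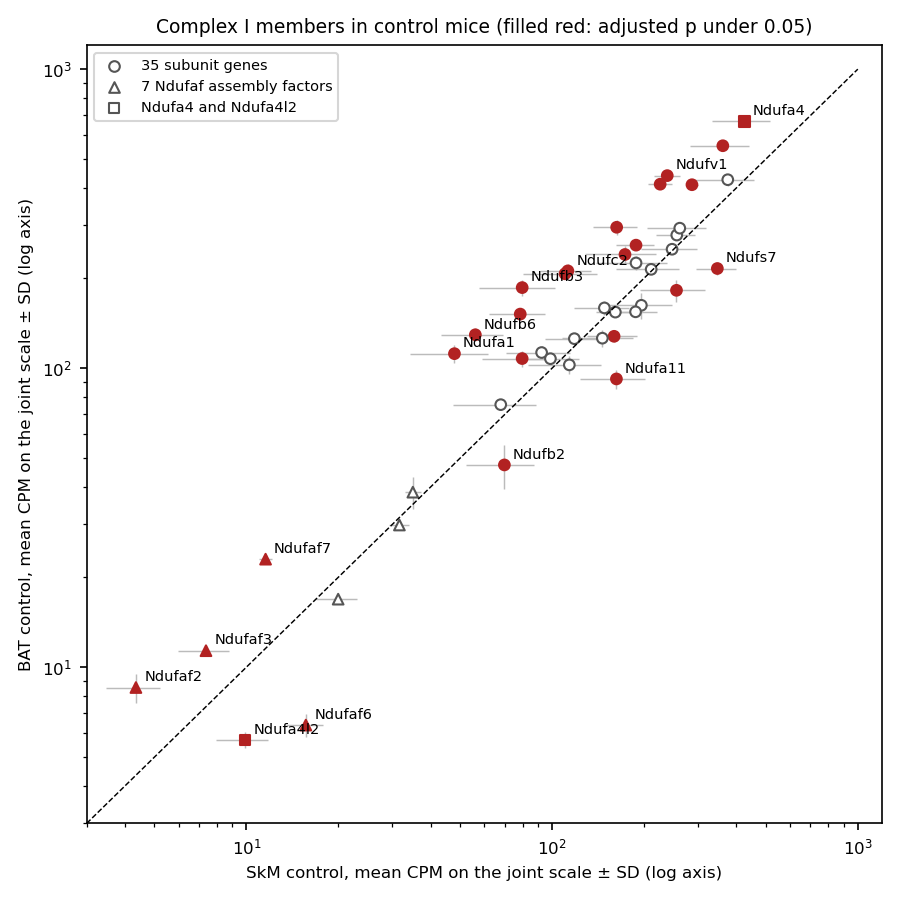
Mean expression of the complex I members, with 35 of the 36 subunit genes, in control BAT (n = 3, y axis) against control SkM (n = 4, x axis), in CPM on 1 scale over both tissues with log axes and bars for the SD. Points above the diagonal were higher in BAT, and red points passed the test (19 of 36 subunit genes).

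The question put to SkM of trained mice was what calorie restriction changes on top of exercise (CREX against EX). Subunit genes were lower in CREX: 15 of 36 were called lower and 0 higher, where 6.96% of all 13112 genes tested were called lower and 6.62% higher. The median log2 fold change was -0.42 over the subunit genes, from -0.75 to 0.18, and 0.0026 over all genes, and 35 of 36 estimates were below 0. An unadjusted p under 0.05 was reached by 30 subunit genes, all lower, against 16.0% of all genes lower. Fold changes above 1.5 with an adjusted p under 0.05 were found for 7 subunit genes, against 5.17% of all genes lower.

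The smallest p belonged to Ndufc1, a membrane subunit next to the ND2 protein, with 68.3, 56.2 and 73.8 CPM in CREX and 96.0, 97.8, 106 and 112 CPM in EX. All CREX libraries lay below all EX libraries, and the log2 fold change was -0.65 (SE 0.12, edgeR adjusted p = 0.0126). Ndufb2 had 46.6, 35.7 and 35.1 CPM in CREX and 62.6, 56.3, 67.9 and 71.9 in EX, without overlap (-0.73, SE 0.14, edgeR adjusted p = 0.0134). Ndufab1, the mitochondrial acyl carrier protein that also serves fatty acid and lipoic acid synthesis, had the largest change, from 162, 149, 149 and 177 CPM in EX to 112, 77.6 and 95.3 CPM in CREX. Its log2 fold change was -0.75 (SE 0.14, edgeR adjusted p = 0.0135). Ndufa1, Ndufb3 and Ndufa8, the last a subunit on the intermembrane side, were lower by -0.58, -0.61 and -0.64.

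Of the 7 core subunits encoded in the nucleus, which carry the redox centres, Ndufs1 and Ndufs8 were called. Ndufs8 passes electrons through iron-sulfur clusters of the Q module and had 111, 69.1 and 82.7 CPM in CREX against 147, 136, 147 and 153 CPM in EX (-0.74, SE 0.16, edgeR adjusted p = 0.0205). Ndufs1 had 232, 153 and 164 CPM in CREX against 300, 309, 259 and 283 CPM in EX (-0.66, SE 0.16, edgeR adjusted p = 0.0299). For both genes the first CREX library was the highest of its group and still below every EX library. Estimates of Ndufs3, Ndufs7, Ndufv1 and Ndufv2 ran from -0.25 to -0.46 and did not pass the test, although the unadjusted p of each was under 0.05. Ndufv1 varied most, with 225, 136 and 142 CPM in CREX against 217 to 239 CPM in EX, and here the groups overlap.

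By arm, 2 of 10 N module, 3 of 6 Q module, 5 of 9 proximal and 5 of 11 distal genes were called lower, with median log2 fold changes of -0.26, -0.39, -0.45 and -0.44. Whether the arms differ from each other was not tested. The called genes were Ndufs1 and Ndufs4 of the N module, Ndufs8, Ndufa9 and Ndufa5 of the Q module, Ndufc1, Ndufa1, Ndufa8, Ndufa11 and Ndufa13 of the proximal arm, and Ndufab1, Ndufb2, Ndufb3, Ndufb8 and Ndufb10 of the distal arm. Ndufb9 stood just outside the threshold (edgeR adjusted p = 0.0523) and Ndufa5 just inside (0.0455). Ndufa7 of the N module was the member with an estimate above 0, with 77.4, 87.3 and 127 CPM in CREX and 85.0, 75.5, 86.3 and 94.3 in EX, and the groups overlap (0.18, SE 0.16, edgeR adjusted p = 0.464). Ndufa5, Ndufb10 and Ndufa7 lie outside the rule for named genes and were chosen after their values were seen.

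**Figure D2:**
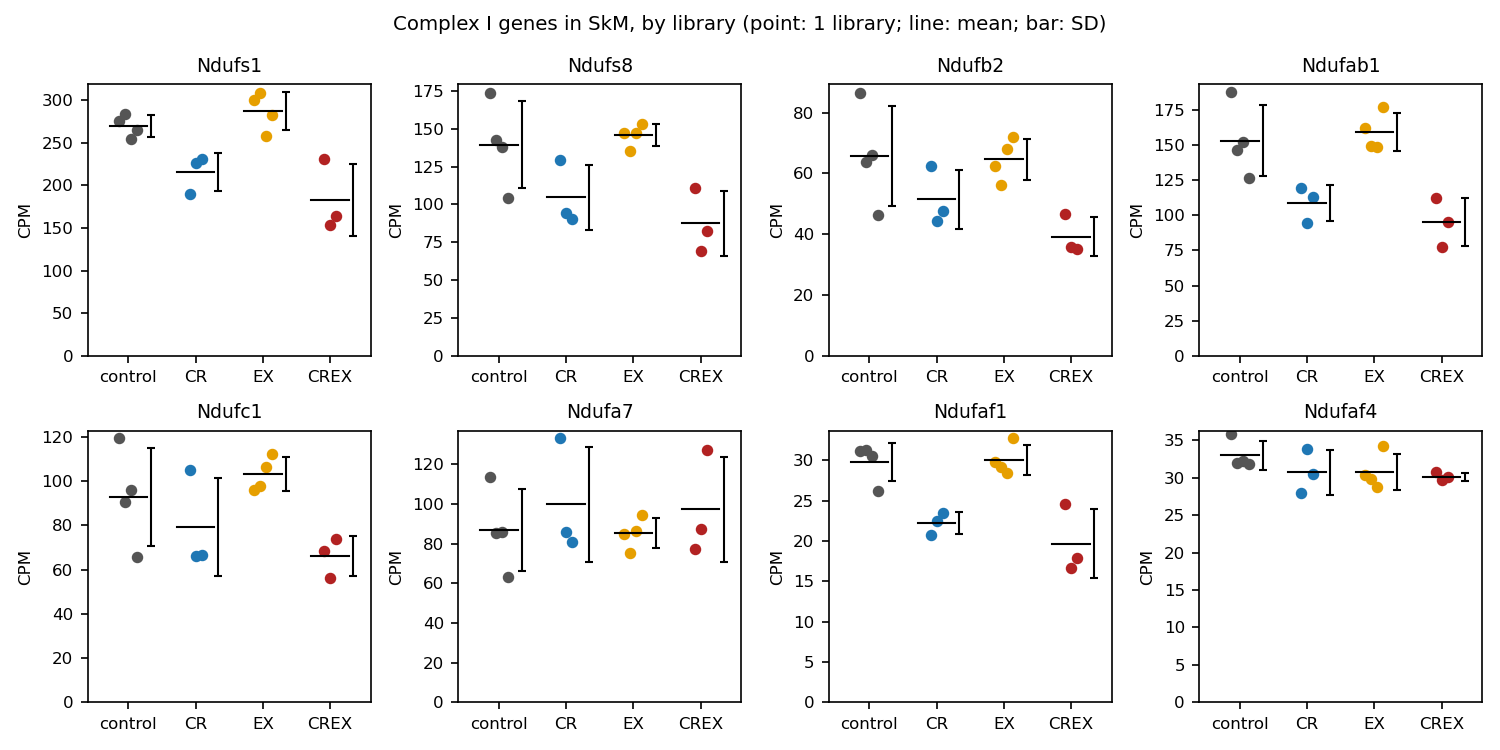
Expression of 8 complex I genes in CPM (y axis, from 0 in each panel) in the SkM libraries of the 4 groups, with 1 point per library, a line at the group mean and a bar for the SD. Points of CREX lie below all points of EX for Ndufs1, Ndufs8, Ndufb2, Ndufab1, Ndufc1 and Ndufaf1, and overlap with EX for Ndufa7 and Ndufaf4.

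The count of called genes depended on single libraries: it was 2 without CREX replicate 2, 8 without CREX replicate 3, 27 without CREX replicate 1, 4 without EX replicate 1, 2 or 3, and 5 without EX replicate 4. The median of the subunit genes kept its sign in each of these fits, from -0.49 to -0.31. DESeq2 called 22 subunit genes lower, for which no share over all genes is given.

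Of the 7 assembly factors 2 were lower. Ndufaf1, which builds the membrane arm, had 24.6, 16.6 and 17.8 CPM in CREX and 29.8, 29.2, 28.5 and 32.8 in EX (-0.61, SE 0.15, edgeR adjusted p = 0.0260). Ndufaf3 had 5.39, 3.98 and 5.58 CPM in CREX and 7.91, 6.78, 8.42 and 6.81 in EX (-0.59, SE 0.16, adjusted p = 0.0418), both without overlap. Ndufaf4, the partner of Ndufaf3 in Q module assembly, had 30.1 ± 0.532 against 30.8 ± 2.40 CPM (-0.04, SE 0.09, adjusted p = 0.801). Of 14 other assembly factors matched, Timmdc1, a membrane arm factor, was lower by -0.38 and no other was called. Ndufa4 had a log2 fold change of -0.25 and Ndufa4l2 of -0.57, and neither passed.

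The mitochondrially encoded ND genes, which share 1 genome and its transcripts, were all lower: 7 of 7 were called, with a median log2 fold change of -0.93. Their mean log2(CPM + 1) was 12.6, 12.1 and 12.1 in CREX and 13.2 to 13.3 in EX. Protein genes of the mitochondrial genome together, the ND genes among them, took 27.3, 18.5 and 19.6% of the counts in CREX and 33.5 to 35.7% in EX. Whether the ND genes changed apart from the rest of that genome was not tested. mt-Nd3 changed most, by -1.32 (SE 0.12, edgeR adjusted p = 0.00112). Of 11 transcription regulators of oxidative metabolism, 3 were lower, namely the coactivator Ppargc1b (-1.94, 4.69 ± 1.41 against 17.9 ± 1.68 CPM), the nuclear receptor Esrra (-0.61) and the mitochondrial DNA factor Tfam (-0.36), and 0 were higher. Among 13 genes of NADH shuttles and other quinone reductases, Mdh1 of the malate-aspartate shuttle was lower by -0.96 and Gpd1 of the glycerol phosphate shuttle higher by 0.52. Complex II, which feeds ubiquinone from succinate, had 2 of 8 genes lower and a median of -0.38.

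Markers of other cell types moved with the same groups. The 7 slow muscle fibre markers had a summed level of 35.96 to 611 CPM in CREX and 372 to 2008 CPM in EX, with 0 at a level of 0, all 7 estimates lower and 0 called (1 unadjusted). With their mean as a covariate, an alternative chosen after seeing the data, 0 subunit genes were called, the median was -0.35, and the edgeR adjusted p of Ndufc1 was 0.156 with a log2 fold change of -0.61. That fit estimates a further coefficient from the same libraries, which lowers its power, and no share over all genes is given for it. The part of slow fibres in the result was not tested. Fast muscle markers summed to 150621 to 196431 CPM in CREX and 136098 to 158729 CPM in EX, with 1 of 10 called higher. Endothelial markers summed to 99.9 to 198 CPM in CREX and 221 to 273 CPM in EX, with 1 of 4 called lower, and fibroblast markers to 239 to 256 and 253 to 395 CPM, with 2 of 4 lower, and the part of these 3 lists in the result was not tested.

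**Figure D3:**
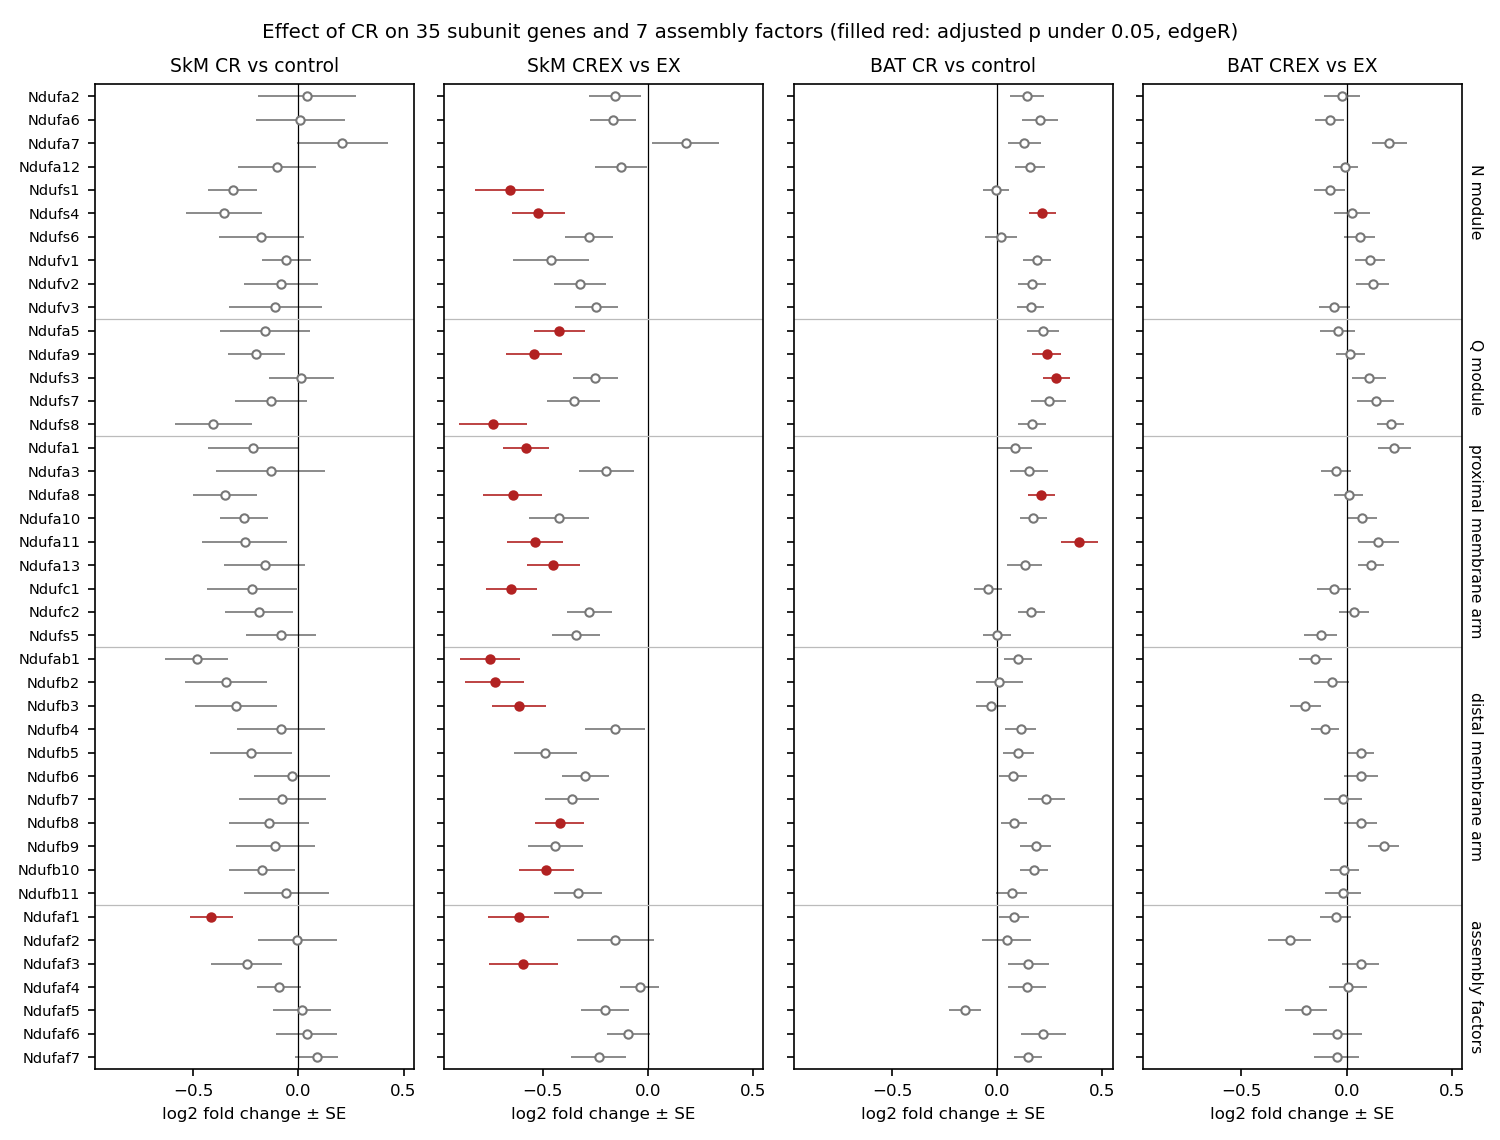
Log2 fold change (x axis) with its standard error for 35 of the 36 subunit genes by arm and the 7 assembly factors, for the pairs CR and control and CREX and EX of SkM and BAT. Filled red points passed the edgeR test at an adjusted p under 0.05: 15 subunit genes lower in SkM CREX against EX, 5 higher in BAT CR against control and 0 in the other panels, with the assembly factor Ndufaf1 lower in both SkM panels and Ndufaf3 in the trained one.

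In sedentary SkM (CR against control), 0 of 36 subunit genes were called by edgeR, where 7.67% of all 13173 genes tested were called lower and 6.29% higher. An unadjusted p under 0.05 was reached by 4, all lower, against 15.3% of all genes lower, and DESeq2 called 2. The median log2 fold change was -0.16 (0.005 over all genes). Omitting a single library gave medians between -0.32 and -0.0006, the latter without control replicate 1. Ndufab1 came closest, with 119, 94.4 and 113 CPM in CR and 187, 146, 152 and 126 CPM in control, without overlap (-0.48, SE 0.15, edgeR adjusted p = 0.0557). Ndufs1 had 190, 227 and 231 CPM in CR and 275, 284, 255 and 265 in control (-0.31, adjusted p = 0.0978). Ndufs8 overlapped between the groups, with 130, 94.4 and 90.2 CPM against 174, 142, 138 and 104 CPM. The count was 3 without CR replicate 1 and 1 without control replicate 4.

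Ndufaf1 was the member called in sedentary SkM, with 20.8, 22.4 and 23.4 CPM in CR and 31.2, 31.2, 30.5 and 26.2 in control, so that all CR libraries were lower (-0.41, SE 0.10, edgeR adjusted p = 0.0238). The other 6 assembly factors of the rule and all 14 others were not called. All 7 ND genes were lower here as well, with a median of -0.95 (-1.19 to -0.89) and mean log2(CPM + 1) values of 12.2, 12.4 and 12.3 against 13.1 to 13.4. Protein genes of the whole mitochondrial genome took 21.2, 24.0 and 23.6% of the counts in CR and 33.3 to 37.2% in control. Of the regulators 4 of 11 were lower: the estrogen-related receptors Esrrg (-1.42), Esrrb (-1.16) and Esrra (-0.34), and Ppargc1b (-1.26). Mdh1, Etfdh, which passes electrons from fatty acid oxidation to ubiquinone, and Aifm2 were lower and Gpd1 higher, while 0 of 8 complex II genes passed, with a median of -0.26.

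Hepatocyte markers were higher in sedentary restricted muscle: the 4 markers summed to 34.9, 191 and 176 CPM in CR and 0.232 to 5.31 CPM in control, and all 4 were called higher. In trained muscle they summed to 0.249 to 41.2 CPM in CREX (median 0.324) and at most 1.71 CPM in EX, and the 1 marker tested was not called. Of the 4 adipocyte markers tested in CR against control, 3 had higher estimates, each at an unadjusted p under 0.05, and 0 were called. Slow fibre markers summed to 1727 to 2028 CPM in CR and 1104 to 2114 in control, with 1 of 7 higher, and with their mean as a covariate, an alternative chosen after seeing the data, 0 subunit genes were called and the median was -0.03. Fast muscle markers summed to 151261 to 209216 CPM in CR and 123958 to 140783 CPM in control, without overlap, with 2 of 10 called higher and all 10 estimates above 0. Endothelial markers summed to 133 to 174 and 218 to 279 CPM, with 3 of 4 lower, and fibroblast markers to 211 to 271 and 297 to 380 CPM, with 2 of 4 lower. The part of the hepatocyte, adipocyte, fast muscle, endothelial and fibroblast markers in the results was not tested.

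For exercise alone no member was called in SkM. In EX against control 0 of 36 subunit genes and 0 of 7 assembly factors were called by edgeR, 0 had an unadjusted p under 0.05 against 6.85% of all genes and DESeq2 called 0, where 0.0232% of 12907 genes were higher and 0.0697% lower. The median was 0.02 and the smallest adjusted p of a subunit gene 0.941. CREX against CR and EX against control share libraries with the comparisons above. In CREX against CR edgeR called 0 of 13068 genes tested (0.0%), 1 subunit gene was lower at an unadjusted p under 0.05, against 1.74% of all genes, and DESeq2 called 0. All 36 estimates were below 0 in that comparison, with a median of -0.20, and the smallest p was that of Ndufb3 (45.7 CPM in CREX against 60.8 in CR on average, log2 fold change -0.42, SE 0.18, edgeR adjusted p = 0.999). The 7 slow fibre markers were also all below 0, with a median of -3.21, 5 at an unadjusted p under 0.05 and 0 called. All 4 hepatocyte markers were below 0 with a median of -3.44, 2 unadjusted and 0 called. The part of both lists was not tested. The interaction of CR and EX called 0 members in SkM by edgeR, with 0 subunit genes at an unadjusted p under 0.05, against 4.92% of all genes, and 0 by DESeq2. All 36 subunit estimates of the interaction were below 0, with a median of -0.25, but none passed the test, so the effect of CR on the subunit genes was not shown to differ between sedentary and trained muscle. Interaction estimates of the 7 slow fibre markers were all below 0 too, with a median of -2.60 and 0 called, and their part was not tested.

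**Figure D4:**
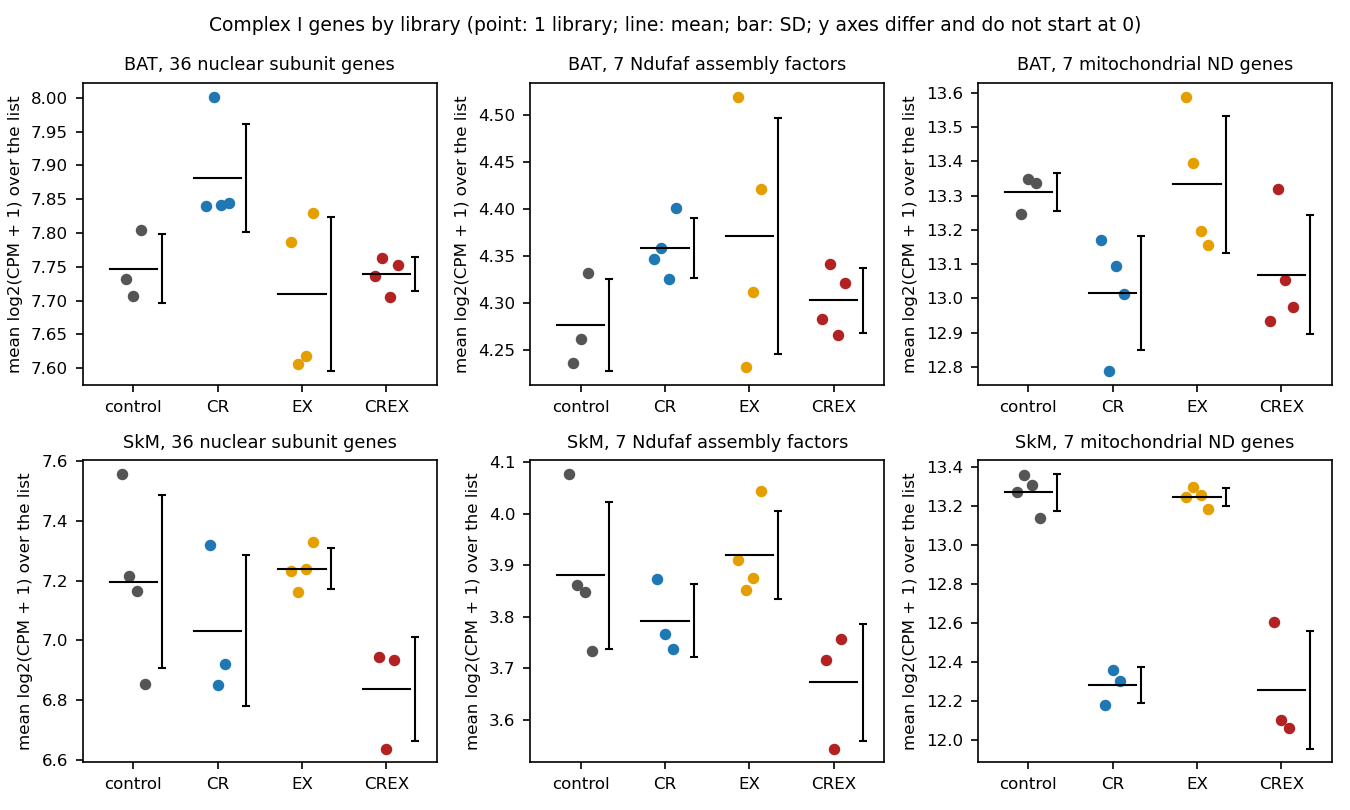
Mean log2(CPM + 1) of the 36 subunit genes, the 7 assembly factors and the 7 ND genes in every library (y axes differ between panels and do not start at 0), for BAT and SkM, with groups on the x axis, lines at the group means and bars for the SD. In SkM the ND genes lie between 12.1 and 12.6 in CR and CREX and between 13.1 and 13.4 in control and EX, whereas the subunit genes of CR and control overlap.

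In sedentary BAT the estimates lay mostly above 0. In CR against control 5 of 36 subunit genes were called higher and 0 lower, where 9.99% of all 13323 genes tested were called higher and 10.9% lower. The median log2 fold change was 0.15 (0.0045 over all genes), 33 of 36 estimates were above 0, and 17 reached an unadjusted p under 0.05, all higher, against 17.5% of all genes. A call with a fold change above 1.5 was made for 0 subunit genes, against 3.87% of all genes higher. Ndufa11 had 123, 155, 136 and 133 CPM in CR and 99.98, 100.3 and 113 CPM in control, without overlap (0.39, SE 0.09, edgeR adjusted p = 0.0119). Ndufs3, a core subunit of the Q module, had 369, 410, 382 and 375 CPM in CR and 330, 301 and 318 CPM in control, also without overlap (0.28, SE 0.06, adjusted p = 0.0128). Ndufa9 (0.24), Ndufs4 (0.21), which stabilizes the N module, and Ndufa8 (0.21, edgeR adjusted p = 0.0432) were the others, and Ndufs7 stood just outside the threshold (0.24, edgeR adjusted p = 0.0601).

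By arm 1 of 10 N module, 2 of 6 Q module, 2 of 9 proximal and 0 of 11 distal genes were called (3 distal genes had an unadjusted p under 0.05, and the smallest adjusted p was 0.0840). The count was 3 without CR replicate 1, 7 without CR replicate 3, 2 without CR replicate 4, 1 without control replicate 1, 0 without control replicate 2 and 3 without control replicate 3. CR replicate 2 stood apart, with a mean log2(CPM + 1) of the subunit genes of 8.002 against 7.84 in each of the other 3 CR libraries and 7.71 to 7.80 in control, and 4 subunit genes were called without it. Summed fast muscle markers ran from 21.8 to 1604 CPM in CR and from 3.66 to 761 CPM in control, with 0 of 10 called, and with their mean as a covariate 5 subunit genes were called. Brown adipocyte markers summed to 4356 to 5277 and 6637 to 7709 CPM, with 1 of 7 called lower. Fibroblast markers summed to 133 to 170 CPM in CR and 236 to 285 CPM in control, with 3 of 4 lower, endothelial markers to 216 to 270 and 302 to 345 CPM, with 3 of 4 lower, and macrophage markers to 11.0 to 18.2 and 20.2 to 22.8 CPM, with 2 of 4 lower. None of these 4 lists overlaps between the groups, and their part was not tested.

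Of the assembly factors of the rule edgeR called 0 of 7, 0 had an unadjusted p under 0.05 and DESeq2 called 0. Their median was 0.14 with 6 of 7 estimates above 0, and whether they differ from the subunit genes was not tested. Ndufaf8, listed in the table under an older symbol and so outside the rule, was lower by -0.34, and of 14 other assembly factors the flavoprotein Foxred1 (0.23) and Sfxn4 (0.56) were higher. All 7 ND estimates were below 0 with a median of -0.23, and mt-Nd2 was called (-0.54, SE 0.09, edgeR adjusted p = 0.00307). Protein genes of the whole mitochondrial genome took 41.5 to 44.3% of the counts in CR and 44.9 to 45.9% in control. Of the regulators Esrra was higher (0.34) and Nrf1 (-0.50) and Pprc1 (-0.91) lower. The shuttle genes Mdh1 (0.51) and Got1 (0.97) and the ubiquinone-linked Dhodh (0.26) were higher, and 0 of 8 complex II genes were called.

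In trained BAT (CREX against EX) edgeR called 0 of 36 subunit genes, where 3.71% of 13251 genes were called higher and 4.3% lower. An unadjusted p under 0.05 was reached by 4 higher and 1 lower, against 12.0% and 13.6% of all genes, DESeq2 called 1, and the median was 0.02. Ndufs8 had the smallest p, with 192, 200, 181 and 192 CPM in CREX and 175, 162, 157 and 168 CPM in EX, without overlap (0.21, SE 0.06, edgeR adjusted p = 0.0704). Ndufaf8 (-0.37) and mt-Nd5 (-0.51) were lower and Mdh1 (0.33) higher, and no regulator and no complex II gene was called. For EX against control edgeR called 0 of 13407 genes in BAT (0.0%), with 0 subunit genes at an unadjusted p under 0.05 against 7.25% of all genes, 0 by DESeq2 and a median of -0.03. Fast muscle markers summed to 1144 to 6936 CPM in CREX and 6.99 to 4316 CPM in EX, with 0 of 10 called. With their mean as a covariate, an alternative chosen after seeing the data, 1 subunit gene was called in CREX against EX and the median was 0.05. Brown adipocyte markers summed to 3426 to 4942 CPM in CREX and 5818 to 6840 CPM in EX, with 2 of 7 called lower. Fibroblast markers summed to 158 to 173 and 256 to 991 CPM, also without overlap, with 0 of 4 called. Of the adipocyte markers 1 of 6 was called higher, and the 1 B and T cell marker tested was lower. The part of these lists was not tested.

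Exercise in restricted mice (CREX against CR) gave BAT subunit genes negative estimates: 35 of 36 were below 0 and the median was -0.16. None passed the edgeR test, and 20 had an unadjusted p under 0.05, against 3.91% of all genes lower. DESeq2 called 5 lower, for which no share over all genes is given. In this comparison edgeR called 1 of 13112 genes higher (0.00763%) and 0 lower. Ndufa6, a subunit of the LYR family that holds an acyl carrier protein, had 255, 252, 260 and 243 CPM in CREX and 294, 359, 305 and 294 CPM in CR, without overlap (-0.31, SE 0.07, edgeR adjusted p = 0.385). Fast muscle markers summed to 1144 to 6936 CPM in CREX and 21.8 to 1604 CPM in CR, with all 10 estimates above 0 (median 2.16) and 0 called. With their mean as a covariate 0 subunit genes were called and the median was -0.12. The interaction of CR and EX called 0 members in BAT by edgeR, with 7 subunit genes at an unadjusted p under 0.05, all negative, against 2.87% of all genes, and 0 by DESeq2.

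Whether the effect of CR differed between the tissues was tested as the log2 fold change in BAT minus that in SkM. In trained mice 11 of 36 subunit genes differed, all with the higher value in BAT, where 3.03% of 14410 genes were called in that direction, and the median was 0.47 (-0.0246 over all genes). In the other direction 0 subunit genes and 2.55% of all genes were called, and 27 subunit genes reached an unadjusted p under 0.05, against 11.1% of all genes in that direction. Ndufs8 differed most, by 0.95 (SE 0.17, edgeR adjusted p = 0.00821), with 0.21 in BAT and -0.74 in SkM, followed by Ndufa1 with 0.81 (adjusted p = 0.00574). The others were Ndufa11, Ndufb2, Ndufa8, Ndufb9, Ndufab1, Ndufc1, Ndufa13, Ndufa9 and Ndufs4, from 0.55 to 0.70, and the assembly factor Ndufaf3 differed by 0.67. The count was 22 without SkM CREX replicate 1, 2 without SkM CREX replicate 2, 5 without SkM CREX replicate 3, 7 without SkM EX replicate 3 or 4, 6, 4 and 3 without BAT CREX replicate 1, 2 and 4, and 2 and 5 without BAT EX replicate 2 and 3.

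In sedentary mice the same test called Ndufab1 (0.59, SE 0.17, edgeR adjusted p = 0.0463) and Ndufaf1 (0.50, SE 0.12, adjusted p = 0.0223), against 3.93% of 14369 genes in that direction, with a median of 0.29 over the subunit genes and 8 at an unadjusted p under 0.05, against 11.2% of all genes. In the other direction 0 subunit genes and 3.65% of all genes were called. The count of 1 subunit gene became 8 without SkM CR replicate 1, 7 without SkM control replicate 4 and 0 without any other library. Of the ND genes 2 of 7 differed in trained and 4 of 7 in sedentary mice, all with the higher value in BAT. Esrra differed in both, by 0.74 and 0.68.

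Within groups the subunit genes varied together from library to library. After removal of group means, the correlation of a subunit gene with the mean of the other 35 had a median of 0.82 over the 15 BAT libraries and 0.95 over the 14 SkM libraries, and it was above 0.8 for 20 and 33 of 36 genes, against 1.26% and 2.87% of other genes. These are descriptions, and the points share libraries and depth. In SkM the exceptions were Ndufs1 with -0.002, Ndufv1 with 0.41 and Ndufa10 with 0.60, while Ndufc2 and Ndufb9 had 0.99. Ndufs1 was also the lowest in BAT with 0.47. Ndufc2 was chosen after its value was seen. Assembly factors ranged from 0.07 (Ndufaf4) to 0.70 (Ndufaf7) in BAT and from 0.11 (Ndufaf4) to 0.85 (Ndufaf5) in SkM, and Ndufa4 had 0.86 and 0.94. Ndufaf5 was chosen in the same way.

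SkM control replicate 1 had all 36 subunit genes above their group mean and control replicate 4 had 0 of 36, with mean deviations of 0.36 and -0.35 on the log2 scale. CR replicate 1 had 34 above and CREX replicate 2 had 0. In BAT, EX replicate 4 had 36 above, EX replicates 2 and 3 had 1 and 0, and CR replicate 2 had 35. Genes with less than 1500 bases of exon deviated in the same direction in some of these libraries: their median deviation was 0.22 in SkM control replicate 1, -0.23 in control replicate 4 and 0.25 in CR replicate 1. In CREX replicate 2 it was -0.03, where the subunit genes deviated by -0.20, and in CREX replicate 1 the directions were opposite, with -0.13 for the short genes and 0.11 for the subunit genes. In SkM CREX against EX the 18 subunit genes of 1000 bases or more had 10 calls and a median of -0.47, the 18 shorter ones had 5 calls and a median of -0.34, and all genes under 1500 bases had a median of -0.02, and the part of transcript length was not tested. The mean of the fast muscle markers had a correlation with the subunit mean within groups of -0.67 over the BAT libraries and 0.71 over the SkM libraries.

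**Figure D5:**
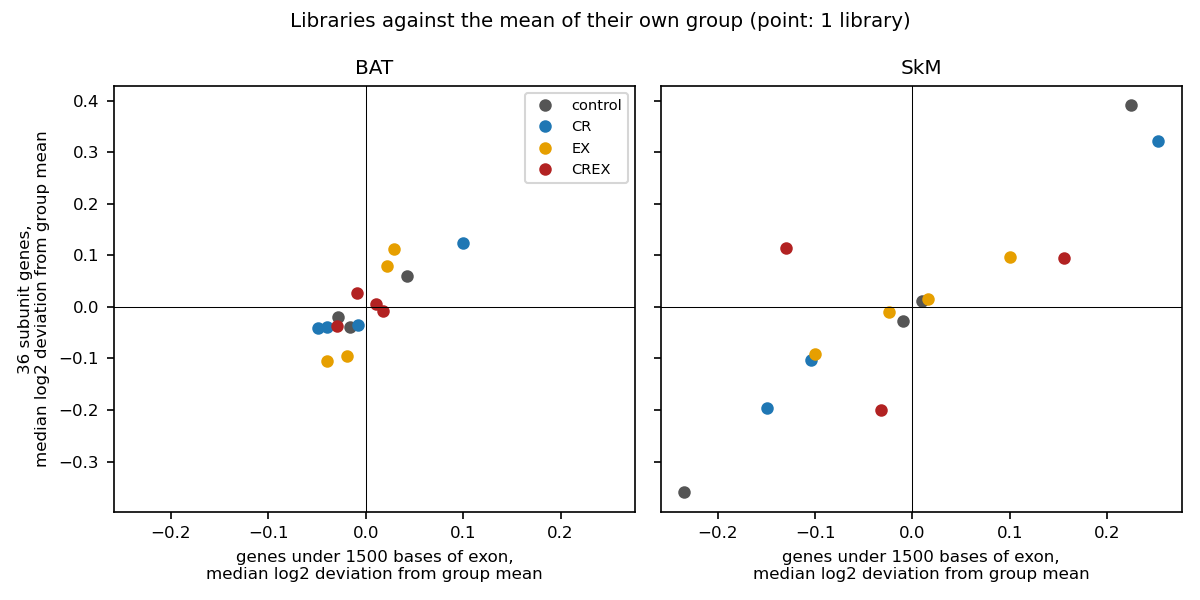
Median log2 deviation from the group mean of the 36 subunit genes (y axis) against that of all genes with less than 1500 bases of exon (x axis), with 1 point per library of BAT and SkM. SkM control replicates 1 and 4 and CR replicate 1 lie farthest from 0 on both axes, at 0.39, -0.36 and 0.32 for the subunit genes.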

How the data were processed

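RNA of BAT (15 libraries) and gastrocnemius muscle (14 libraries) was sequenced as paired-end reads on a BGISEQ instrument. Per the labels and the study's methods, the authors trimmed reads with trim-galore, aligned them to mm10 with STAR (2.7.10a in the submitters' processing notes) and deposited expected counts per gene symbol from RSEM (1.2.28 in those notes). The annotation is not given in the sources used here. Of the values 6.11% were not whole, and all were rounded. The table holds 2 duplicated symbols and 27 symbols turned into dates.

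Each comparison was fitted on its own groups over all genes that passed filterByExpr, with TMM scaling and edgeR 4.0.16 (robust quasi-likelihood, R 4.3.3). A call is a Benjamini-Hochberg adjusted p under 0.05 over all genes tested. The labels do not say that libraries came from separate mice beyond naming replicates, so p-values measure the spread between these samples. CPM are scaled within a tissue, and over both tissues for the tissue comparison. List levels are means of log2(CPM + 1). Totals were 21047242 to 24919377 counts per library, and no subunit gene had fewer than 624 counts in a library and no assembly factor fewer than 76. Alternatives were DESeq2 1.42.0, other scaling and filters, 1 fit for all groups, a replicate block, leaving out the mitochondrial genome or each library, a fold change above 1.5, and, added later, a muscle marker score. Fits were tested on simulated data. In simulated BAT data DESeq2 called 23 unchanged genes and edgeR 7 for CR against control, and 26 and 8 for CREX against EX. In simulated SkM data these numbers were 16 and 8 for CR against control, and 13 and 3 for CREX against EX. Of genes changed 1.33-fold edgeR called 14 of 49, 2 of 49, 2 of 50 and 1 of 50, in the same order of comparisons. Of those changed 1.5-fold it called 18 of 50, 12 of 47, 12 of 50 and 13 of 50, and DESeq2 20, 24, 17 and 23. Changes of this size were thus mostly missed by edgeR, and a lack of calls does not show a lack of change. Each gene was simulated on its own, whereas the subunit genes varied together. Every share over all genes given here is that of edgeR.

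The members, lists and tests were chosen with earlier results of these data known. Named were the nuclear core subunits, up to 4 members called per direction and comparison by smallest p (the smallest p where none was called), the 3 highest and lowest subunit genes per tissue, called Ndufaf genes, Ndufa4, Ndufa4l2, Ndufs1, Ndufs8 and Ndufb2, and up to 3 genes of other lists by smallest p. Other named genes complete a short count and were chosen after their values were seen. Promoters came from RefSeq (GRCm38.p6), and gene positions and lengths from GENCODE. The values of 1 subunit gene, which enters the counts and medians, are not reported here.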

Additional observations from a re-analysis of the deposited data

Results flagged for a closer look

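In 165 groups of 4 libraries examined, 7 had a library far from the other 3, where chance alone marks about 1 group in 20. In BAT of CR mice, replicate 2 stood high for Ndufs7 (332 CPM), Ndufa6 (359 CPM) and the mean log2(CPM + 1) of the subunit genes (8.002), and replicate 4 for Ndufaf7 (29.9 CPM). In BAT of CREX mice, Ndufb6 was low in replicate 3 (131 CPM). In SkM of control mice, Ndufaf1 was low in replicate 4 (26.2 CPM) and Ndufaf4 high in replicate 1 (35.8 CPM).

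The effect of CR differed between BAT and SkM by the test of the difference itself (edgeR, adjusted p under 0.05) for 14 values, all higher in BAT. In sedentary mice 1 of 36 subunit genes was called in that direction, a share not above the 3.93% of all 14369 genes tested. In trained mice 11 of 36 were called, against 3.03% of 14410 genes. The sedentary log2 differences were 0.59 for Ndufab1, which lost its call in 14 of 22 alternatives, and 0.50 for Ndufaf1, which lost it in 2 of 22. In trained mice they were 0.95 for Ndufs8, 0.81 for Ndufa1, 0.70 for Ndufa11, 0.67 for Ndufaf3, 0.66 for both Ndufb2 and Ndufa8, 0.62 for Ndufb9, 0.61 for Ndufab1, 0.60 for Ndufc1, 0.57 for both Ndufa13 and Ndufa9 and 0.55 for Ndufs4.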

How the results depend on the processing

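Of 235 alternative counts of called subunit genes 172 stayed within 1.5 times the reported count, and no value changed sign with a call. These counts include comparisons with 0 calls. Over 16 alternatives of SkM CREX against EX, Ndufc1 and Ndufab1 each lost the call in 1, Ndufs8 in 7, Ndufs1 in 8 and Ndufa11 in 10. The assembly factors Ndufaf1 and Ndufaf3 each lost it in 8. Over 16 alternatives of BAT CR against control, Ndufa11 and Ndufs3 each lost the call in 3. Ndufa9 lost it in 6 of these, Ndufs4 in 7 and Ndufa8 in 10. Over 23 alternatives of the tissue difference in trained mice, Ndufa1 lost it in 0, Ndufs8 in 1, Ndufab1 in 15 and Ndufs4 in 19. DESeq2 called 8 subunit genes in BAT CR against control, 1 in BAT CREX against EX, 5 in BAT CREX against CR, 2 in SkM CR against control, and 7 and 21 for the tissue difference in sedentary and trained mice. No share over all genes is given beside these DESeq2 counts. With the replicate number as a block the counts were 1 in BAT CR against control, 9 in SkM CR against control, 6 in SkM CREX against EX, and 0 and 1 for the tissue differences. The labels do not pair the libraries, and the deviations of same-numbered libraries correlated from -0.47 to 0.002 in BAT and from -0.02 to 0.31 in SkM for CR against control, where 0 of 6 and 5 of 6 libraries correlated best with their own number. A fold change above 1.5 left 0 in BAT CR against control, 7 in SkM CREX against EX and 12 between the tissues. One fit for all groups called 1 in BAT CREX against EX, 1 in SkM CR against control and 2 for the sedentary tissue difference. That difference gave 3 with RLE scaling, 0 without a filter, 3 with at least 10 counts in every library and 2 without the mitochondrial genome, and SkM CR against control gave 1 without a filter. The muscle marker score, chosen after seeing the data, gave 1 in BAT CREX against EX and 0 in SkM CREX against EX, and the cause was not tested. Leaving out 1 library gave 0 to 7 in BAT CR against control, 0 to 3 in SkM CR against control, 2 to 27 in SkM CREX against EX, 0 to 1 for the SkM interaction, 0 to 8 and 2 to 22 for the tissue differences, and 15 to 23 between the tissues.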
